A study of Mus musculus with 8 samples.

Results

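The genes described here are 51 genes of DNA replication and mitosis, chosen by name: 23 that are used at the G1/S boundary (Mcm2 to Tk1) and 28 that are used in G2 and M phase (Mki67 to Ndc80). All 51 were found by symbol among the 13204 genes of the deposited expression table, and all 51 passed the filter on low values, so none is left out below. Their transcripts were measured in FcgRIIB-positive and in FcgRIIB-negative effector CD8 T cells of mice. FcgRIIB is the inhibitory receptor for the Fc part of IgG. Both groups were OT-I cells, T cells with a transgenic receptor for an ovalbumin peptide, of which 1000000 were transferred 24 hours before grafting of skin that expresses ovalbumin. On day 14 cells were sorted from spleens as CD44hi, Thy1.1+ and CD8+, either FcgRIIB+ (4 libraries) or FcgRIIB- (4 libraries), with 1000 cells per library. Each of 4 pools of 3 spleens gave 1 library to each group, so a library is a mean over animals. The cells were transferred into other mice, whose strain is not given in the labels. The ages of the mice are not given in the labels. The comparison asks whether FcgRIIB-positive cells, relative to FcgRIIB-negative cells of the same pool, differ in the transcripts of the dividing cell.

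A cell that is about to divide first loads the MCM helicase onto replication origins with the help of Cdc6 and Cdt1, and E2F factors switch on the genes for this step and for the supply of nucleotides. Genes of G2 and M phase are switched on later, largely through complexes that bind the CHR element and the nearby CCAAT boxes of their promoters. Activated CD8 T cells divide rapidly in the first days after they meet antigen, and these transcripts decline as effector cells come to rest.

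The promoters of both groups of genes are shown because the 2 phases are described apart throughout. RefSeq promoter windows (GRCm38.p6, 250 bases before to 50 after a start site) were found by Entrez ID for 44 of the 51 genes, in 48 windows. Mcm4, Gins2, Ccne2, Ccna2, Aurkb, Kif20a and Tpx2 had none in the table. Searched on both strands were the E2F letters TTTGGCGC, TTTCGCGC, TTTCCCGC, TTTGCCGC and TTCCCGCC, some of which overlap each other, the CHR letters TTTGAA, and CCAAT. E2F letters were in 9 of 23 windows of G1/S genes (39.1%) and in 1 of 25 windows of G2/M genes (4.00%), against 6.58% of the 13416 windows of genes in the expression table and 3.89% of all 32851 windows. CHR letters were in 3 of 23 windows of G1/S genes (13.0%) and in 19 of 25 windows of G2/M genes (76.0%), against 12.5% of windows of genes in the table and 17.9% of all windows. CHR and CCAAT letters stood together in 17 of 25 windows of G2/M genes (68.0%), against 5.04% of windows of genes in the table. In the sequences below, which end at the base before the start site, capitals mark matches to these letters on either strand. Mcm6 and Rrm1 stand for G1/S windows with E2F letters, Slbp is the member with the smallest adjusted p in the paired fit described below, and Ccnb2, Cdk1, Ube2c and Cdc20 are G2/M genes whose values follow. Mcm6 lies on the minus strand at chr1:128359706-128359825, Rrm1 on the plus strand at chr7:102441595-102441694 and Slbp on the minus strand at chr5:33652575-33652694. Ccnb2 is on the minus strand at chr9:70421555-70421654, Cdk1 on the minus strand at chr10:69352913-69353052, Ube2c on the plus strand at chr2:164769829-164769928 and Cdc20 on the minus strand at chr4:118437344-118437403.
Mcm6: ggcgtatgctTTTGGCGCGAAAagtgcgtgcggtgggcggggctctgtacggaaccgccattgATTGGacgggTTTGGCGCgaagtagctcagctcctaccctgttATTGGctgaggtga
Rrm1: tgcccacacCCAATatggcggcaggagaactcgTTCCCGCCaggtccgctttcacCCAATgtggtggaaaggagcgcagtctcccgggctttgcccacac
Slbp: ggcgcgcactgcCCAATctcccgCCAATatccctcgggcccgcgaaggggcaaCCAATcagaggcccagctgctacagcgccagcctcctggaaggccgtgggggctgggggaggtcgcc
Ccnb2: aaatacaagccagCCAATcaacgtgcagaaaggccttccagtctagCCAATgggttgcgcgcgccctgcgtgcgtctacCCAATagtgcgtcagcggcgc
Cdk1: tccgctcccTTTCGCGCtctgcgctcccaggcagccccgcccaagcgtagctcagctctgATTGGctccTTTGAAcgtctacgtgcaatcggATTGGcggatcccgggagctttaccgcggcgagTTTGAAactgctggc
Ube2c: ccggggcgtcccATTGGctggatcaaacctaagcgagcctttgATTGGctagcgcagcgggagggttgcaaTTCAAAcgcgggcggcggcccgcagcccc
Cdc20: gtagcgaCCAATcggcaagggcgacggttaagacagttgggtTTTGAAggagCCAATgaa
In Ube2c and Cdk1 a CHR match lies 29 and 15 bases before the start site. In Ccnb2 the CCAAT letters begin 87, 54 and 21 bases before it. A match is a description of the letters and not a bound site.

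The depth recovered from the values was 5310000 to 22010000 reads in positive libraries and 3060000 to 17950000 reads in negative libraries, and pools 1 and 2 were deeper than pools 3 and 4 in both groups. RPKM counts reads per kilobase of exon, scaled to the reads of the library, which allows levels of different genes to be set side by side. The scarcest member of a library rested on 27 to 38 reads in positive libraries and on 8 to 39 reads in negative libraries, and the median member on 138 to 540 reads and 87 to 492 reads. These figures carry counting error only, and reads of amplified cDNA are not independent molecules. Low values had different floors: 10% of all genes in the table lay below 0.231 to 1.43 RPKM in the positive libraries, below 0.208, 0.295 and 0.805 RPKM in negative replicates 1 to 3, and below 3.03 RPKM in negative replicate 4. Negative replicate 4 was also the shallowest library. Negative replicate 3 stood apart in the other direction, with 14 of the 51 genes in its own lowest 25% of genes, 11 of them G2/M genes, against 2 to 7 of the 51 in each of the other 7 libraries.

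G1/S genes were the more abundant of the 2 groups. Their mean level over all 8 libraries ran from 1.76 RPKM (Ung, which removes uracil from DNA) to 157.2 RPKM (Pcna, the sliding clamp of the replication fork), with a median of 21.6 RPKM. That of G2/M genes ran from 1.74 RPKM (Anln, a scaffold of the cleavage furrow) to 31.2 RPKM (Ube2c, a ubiquitin-conjugating enzyme of mitotic exit), with a median of 6.54 RPKM. Within each library the median G1/S gene stood at percentile 69.6 to 79.3 of all genes in positive libraries and 62.0 to 79.6 in negative libraries. The median G2/M gene stood at percentile 41.3 to 57.8 in positive libraries and 32.2 to 53.2 in negative libraries, so mitotic transcripts were in mid-range in both groups. Mki67, the gene of the proliferation antigen Ki-67, measured 5.52, 2.75, 2.84 and 3.83 RPKM in positive replicates 1 to 4, against 5.29, 1.26, 0.795 and 4.35 RPKM in negative replicates 1 to 4.

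**Figure D1:**
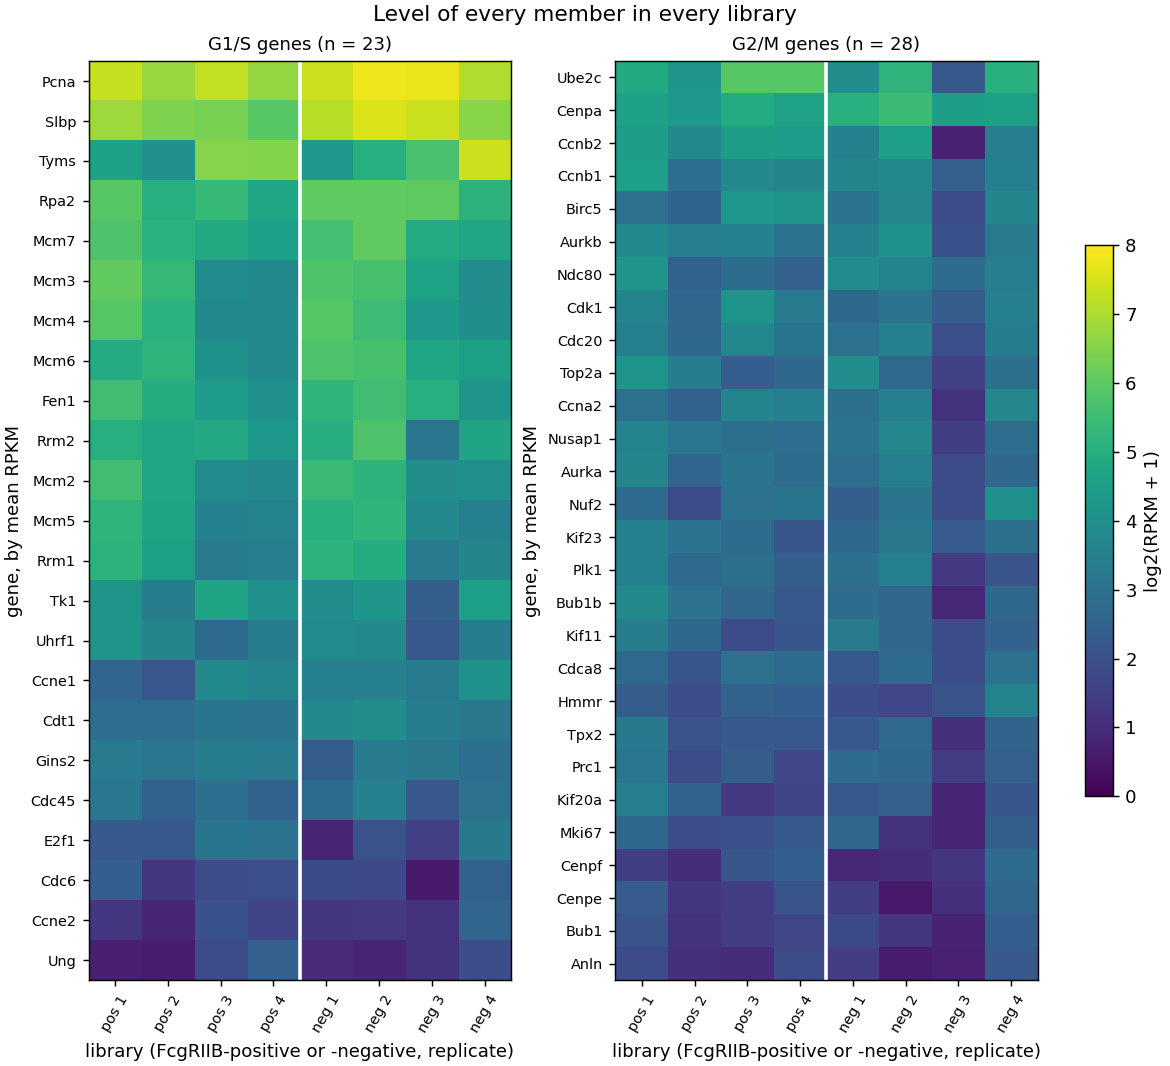
Level of each of the 51 genes (rows, ordered by mean RPKM within the G1/S and the G2/M panel) in each library (columns, 4 FcgRIIB-positive left of the white line and 4 FcgRIIB-negative right of it), as log2(RPKM + 1) in colour. Pcna and Slbp are the top rows of the G1/S panel, with the highest means, and the column of negative replicate 3 is the darkest of the G2/M panel.

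No member passed the test in either direction when the 4 positive libraries were set against the 4 negative libraries. Of all 11946 genes tested by limma, 3.03% were called higher and 0.268% lower at an adjusted p of 0.05, and of the 51 members 0 were called. At an unadjusted p under 0.05 members also numbered 0, against 893 higher and 558 lower over all genes tested. Log2 fold changes, positive minus negative on the log2(RPKM + 1) scale, ran from -0.76 (Slbp) to 0.74 (E2f1) among G1/S genes and from -0.46 (Ndc80) to 1.23 (Ccnb2) among G2/M genes. Their medians were -0.18 over the 23 G1/S genes and 0.29 over the 28 G2/M genes, against -0.11 over all genes tested. In this fit, which takes no account of the pools, the 95% intervals of all 51 genes held 0, and they were wide. The median standard error was 0.43 for G1/S genes and 0.42 for G2/M genes. Only 2 of 23 and 7 of 28 intervals lay wholly within a 2-fold change in either direction. This fit therefore does not show equal levels. With the replicate number, which marks the pool of spleens, as a block, 7.22% of all genes were called higher and 3.85% lower. In that fit 1 of 51 members was called, Slbp as lower. At an unadjusted p under 0.05 limma with the block had 3 higher and 4 lower members, against 1312 higher and 1464 lower of the 11946 genes. The block narrowed the intervals, with a median standard error of 0.26 for G1/S genes and 0.32 for G2/M genes. Of these intervals 18 of 23 and 26 of 28 held 0. More of them than without the block lay wholly within a 2-fold change, among them Mcm2 (-0.68 to 0.29) and Kif11 (-0.67 to 0.50). Others did not, among them Slbp (-1.27 to -0.25) and Ccnb2 (0.36 to 2.10). Equal levels are thus not shown for the members as a set.

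**Figure D2:**
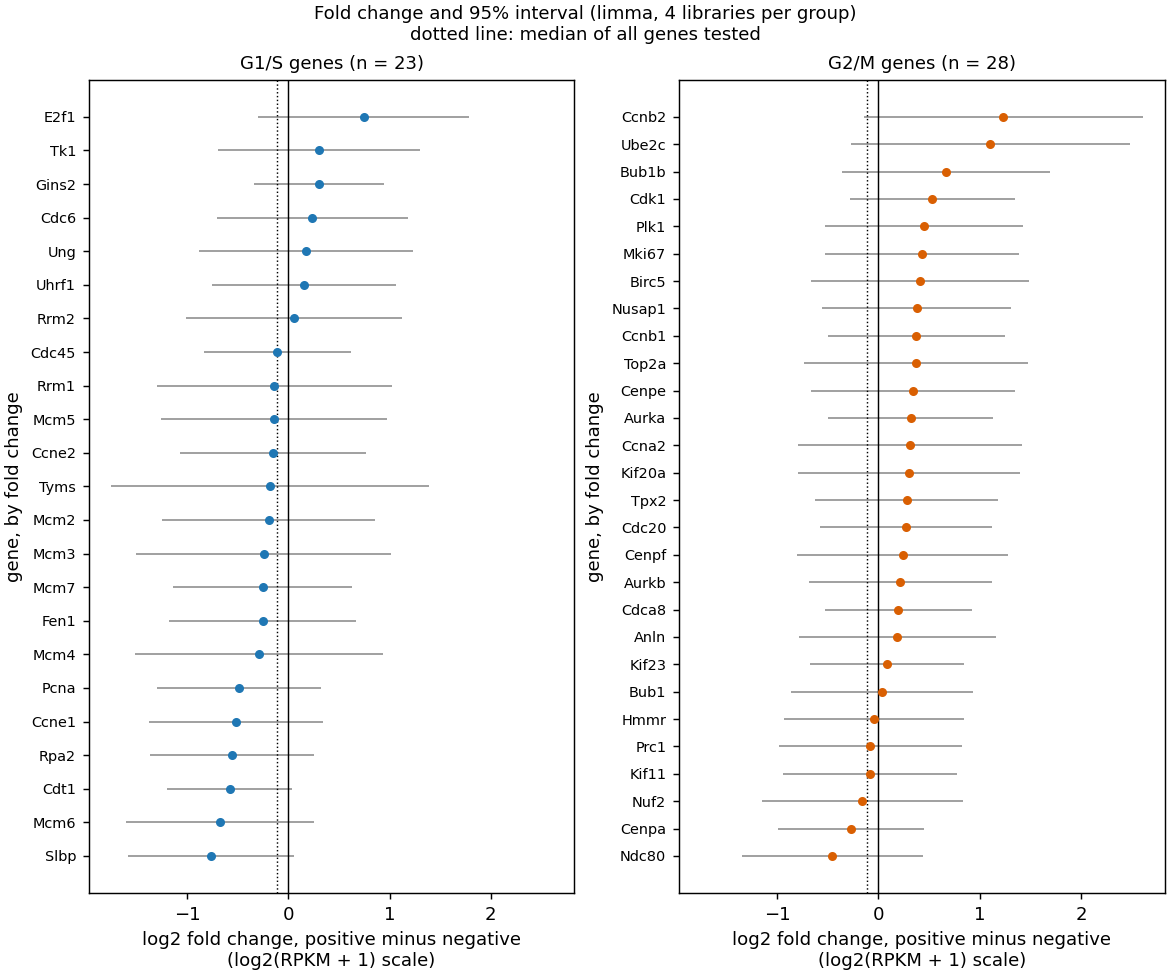
Log2 fold change of each gene, positive minus negative (x axis, log2(RPKM + 1) scale), with its 95% interval from limma without the block (4 libraries per group). The G1/S genes run from -0.76 to 0.74 and the G2/M genes from -0.46 to 1.23, and every interval crosses 0.

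**Figure D3:**
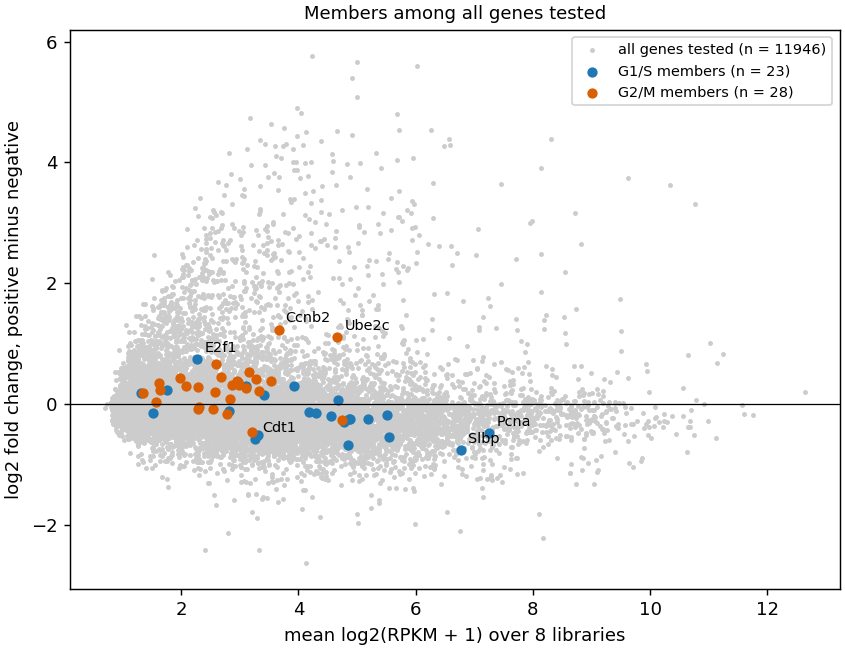
Log2 fold change, positive minus negative (y axis), against mean log2(RPKM + 1) over 8 libraries (x axis), for the 11946 genes tested (grey) and the 51 members (blue G1/S, orange G2/M). The members lie within the cloud of all genes, with Ccnb2 at 1.23 the highest and Slbp at -0.76 the lowest.

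Slbp codes for the protein that binds the stem-loop of histone mRNA and is needed for histone supply in S phase. Its level was 112.4, 87.4, 80.8 and 59.99 RPKM in positive replicates 1 to 4, against 140.9, 186.3, 163.3 and 93.8 RPKM in negative replicates 1 to 4. Each positive library lay below the negative library of its own pool, and the groups overlapped only through negative replicate 4. The mean was 85.2 ± 21.6 RPKM for the positive group and 146.1 ± 39.5 RPKM for the negative group (± SD, n = 4 each), with a log2 fold change of -0.76 (SE 0.38, limma adjusted p = 0.473). With the block its SE was 0.25 and its limma adjusted p 0.0491. That call was lost whichever pool was left out, with adjusted p of 0.0775 to 0.222.

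Cdt1, Mcm6, Pcna and Rpa2 were also lower in the positive library of all 4 pools, which with Slbp made 5 of 23 G1/S genes, against 19.8% of all genes tested. None of the 51 members was higher in all 4 pools, a direction that 10.3% of all genes showed, and no G2/M gene was lower in all 4. Cdt1, a loading factor of the helicase, was at 6.37, 6.23, 7.55 and 7.49 RPKM in positive libraries, against 12.6, 14.5, 9.16 and 7.97 RPKM in negative libraries. It was the only one of the 51 genes whose groups did not overlap; over all genes every negative library lay above every positive one for 4.15% and every positive library above every negative one for 4.61%. The estimate was -0.58 on the log2 scale (SE 0.28, limma adjusted p = 0.465, and 0.201 with the block). The exact permutation p for this gene alone was 0.0286, the smallest that 4 against 4 libraries can give. Groups that do not overlap always give this p, and the test takes no account of the pools, so it adds nothing to that order of the libraries. Mcm6, a helicase subunit, was at 29.6, 35.5, 15.9 and 13.0 RPKM in positive libraries, against 53.7, 49.9, 25.7 and 22.1 RPKM in negative libraries, with a log2 fold change of -0.67 (SE 0.43, limma adjusted p = 0.656, and 0.0601 with the block). Its 4 pool differences, -0.84, -0.48, -0.66 and -0.72 on the log2 scale, were close to each other.

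Pcna was at 157.6, 108.8, 151.4 and 103.9 RPKM in positive libraries, against 168.5, 219.4, 217.6 and 130.3 RPKM in negative libraries. Rpa2, a subunit of the complex that coats single-stranded DNA, was at 59.5, 31.8, 40.0 and 25.9 RPKM in positive libraries, against 64.1, 65.1, 63.4 and 35.4 RPKM in negative libraries. Their log2 fold changes were -0.49 (SE 0.37) and -0.55 (SE 0.37), and neither passed (limma adjusted p = 0.758 and 0.687, and 0.275 and 0.150 with the block). In the same libraries 16 core T cell genes had a median log2 fold change of -0.97, and 15 of them were lower in all 4 pools. In bulk libraries fewer cells of a type and less RNA per cell cannot be told apart. Pcna has pseudogenes in the RefSeq annotation (Pcna-ps1 and Pcna-ps2), so its value is uncertain where reads were shared.

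The other helicase subunits had estimates below 0 that were nearer to 0 than that of Mcm6. Mcm2, Mcm3, Mcm4, Mcm5 and Mcm7 had log2 fold changes between -0.29 and -0.15 and, without the block, intervals that reached below -1. With the block the lower ends of their intervals lay between -0.77 (Mcm4) and -0.64 (Mcm5), and these intervals still held 0. Summed over the 6 subunits the level was 287.6, 191.9, 93.5 and 83.8 RPKM in positive libraries, against 288.9, 280.9, 124.9 and 101.2 RPKM in negative libraries. The difference between pools was thus larger than that between the groups. For Cdc6, which loads the helicase with Cdt1, the positive libraries averaged 2.81 ± 1.12 RPKM and the negative ones 2.47 ± 1.69 RPKM (n = 4 each, ± SD). The activators of the loaded helicase, Cdc45 and Gins2, had estimates of -0.11 (SE 0.33) and 0.30 (SE 0.29) on the log2 scale, and Fen1, which trims Okazaki fragments, one of -0.25 (SE 0.42). Exons of Gins2 and Fen1 overlap those of Gse1 and of Gm10143 on the opposite strand, whose reads cannot be told apart here.

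Of all G1/S genes Tyms had the widest interval in the fit without the block. Tyms, which makes thymidylate, was at 22.7, 15.6, 91.9 and 90.9 RPKM in positive libraries, against 18.4, 31.5, 51.3 and 167.4 RPKM in negative libraries. Its log2 fold change was -0.18 with an interval of -1.75 to 1.39, and of -0.76 to 0.40 with the block. A transcribed pseudogene, Tyms-ps, makes its value uncertain. Rrm1 and Rrm2, the subunits of ribonucleotide reductase, had estimates of -0.14 (SE 0.53) and 0.06 (SE 0.49) on the log2 scale. Tk1, a thymidine kinase of S phase, was at 16.7, 9.59, 24.5 and 15.7 RPKM in positive libraries, against 14.1, 17.6, 4.37 and 21.7 RPKM in negative libraries. The low value of Tk1 was that of negative replicate 3.

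Among the regulators, E2f1, the transcription factor that activates G1/S genes, had the largest positive estimate of its group. It was at 3.67, 3.56, 7.65 and 7.30 RPKM in positive libraries, against 0.773, 3.12, 1.84 and 8.38 RPKM in negative libraries. The positive library was the higher one in pools 1 to 3 and the lower one in pool 4, with an estimate of 0.74 on the log2 scale (SE 0.48, limma adjusted p = 0.665, and 0.176 with the block). Ccne1 and Ccne2, the E-type cyclins that drive entry into S phase, had estimates of -0.52 (SE 0.39) and -0.15 (SE 0.42) on the log2 scale. Uhrf1, which guides maintenance of DNA methylation, averaged 10.9 ± 4.47 RPKM among positive libraries and 10.02 ± 4.62 RPKM among negative ones. Ung averaged 2.07 ± 1.89 RPKM among positive libraries and 1.45 ± 0.913 RPKM among negative ones (n = 4 each, ± SD).

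Of the G2/M genes 22 of 28 had a positive estimate, against 4634 of the 11946 genes tested. Without negative replicate 3 the count was 13 of 28. Ccnb2, a B-type cyclin of mitotic entry, was at 21.3, 12.7, 20.8 and 20.3 RPKM in positive libraries, against 10.2, 21.7, 0.705 and 9.77 RPKM in negative libraries. The positive libraries were even, apart from the lower replicate 2, while the negative libraries spread from near 0 to the highest value of all 8. Ccnb2 thus had an estimate of 1.23 on the log2 scale (SE 0.63, limma adjusted p = 0.501, and 0.0627 with the block), and it was 0.47 without negative replicate 3. Ube2c, which works with the anaphase-promoting complex, was at 28.95, 17.3, 58.1 and 58.3 RPKM in positive libraries, against 14.1, 36.2, 3.71 and 33.0 RPKM in negative libraries. Its log2 fold change of 1.10 (SE 0.63, limma adjusted p = 0.589, and 0.105 with the block) was 0.48 without negative replicate 3. Ccnb2 has an annotated pseudogene, Ccnb2-ps, and 592 exon bases of Ube2c overlap Tnnc2 on the opposite strand.

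The partners of these genes had smaller estimates. Cdk1, the kinase of the mitotic cyclins, was at 11.1, 5.21, 16.7 and 8.95 RPKM in positive libraries, against 5.49, 7.19, 4.13 and 10.2 RPKM in negative libraries (log2 fold change 0.53, SE 0.37). Ccnb1 and Ccna2, further cyclins of these phases, had estimates of 0.38 (SE 0.40) and 0.31 (SE 0.51) on the log2 scale. Both are uncertain, since Ccnb1 has a transcribed pseudogene, Ccnb1-ps, and 510 exon bases of Ccna2 overlap Exosc9 on the opposite strand. Cdc20, an activator of the anaphase-promoting complex, had one of 0.27 (SE 0.39). The mitotic kinases Aurka, Aurkb and Plk1 stood at 0.32 (SE 0.37), 0.21 (SE 0.41) and 0.45 (SE 0.45), and Birc5, a partner of Aurkb in the chromosomal passenger complex, at 0.41 (SE 0.49). None passed with or without the block.

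Spindle checkpoint, kinetochore and motor genes did not share a direction. Bub1b, a checkpoint protein, was at 13.1, 7.03, 5.28 and 3.75 RPKM in positive libraries, against 6.12, 5.24, 0.889 and 5.35 RPKM in negative libraries (log2 fold change 0.67, SE 0.47, limma adjusted p = 0.716). Its relative Bub1 had a log2 fold change of 0.04 (SE 0.41). Ndc80 and Nuf2, which form part of the complex that holds microtubules at the kinetochore, had the lowest and the third lowest estimates of the group, -0.46 (SE 0.41) and -0.16 (SE 0.46). Cenpa, the histone variant of centromeres, was the second most abundant G2/M gene with a mean of 23.6 ± 4.43 RPKM among positive libraries and 29.5 ± 10.04 RPKM among negative ones (n = 4 each, ± SD; log2 fold change -0.27, SE 0.33). The kinesins Kif11, Kif20a and Kif23 had log2 fold changes of -0.08, 0.30 and 0.09, and the spindle and midzone genes Tpx2, Nusap1, Prc1 and Hmmr ones of 0.28, 0.38, -0.08 and -0.04. Mki67 had a log2 fold change of 0.43 with an interval of -0.52 to 1.39, and Top2a, which untangles sister chromatids, one of 0.37 with an interval of -0.74 to 1.48. The other 4 members, Cenpe, Cenpf, Anln and Cdca8, lay between 0.19 and 0.34. Exons of Slbp, Mcm7, Ccne2, Cdc45, Tk1, Cdc20, Cdca8, Kif20a, Nusap1, Plk1 and Prc1 also overlap a gene on the opposite strand in the annotation, and the same uncertainty holds for them.

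The direction of the mitotic genes differed between the pools. In pool 1, 26 of 28 G2/M genes were higher in the positive library and in pool 3, 27 of 28, against 8 of 28 in pool 2 and 8 of 28 in pool 4. The corresponding shares over all genes tested were 46.3%, 51.1%, 44.7% and 30.6% for pools 1, 3, 2 and 4. The median difference of the G2/M genes was 0.50, -0.68, 1.11 and -0.27 in pools 1 to 4. Over all genes tested it was -0.05, -0.11, 0.02 and -0.26, so in pool 4 the G2/M genes lay near all genes. The mean of the 28 genes on the log2(RPKM + 1) scale was 3.33, 2.53, 2.94 and 2.84 in positive replicates 1 to 4, against 2.82, 2.94, 1.70 and 3.09 in negative replicates 1 to 4. Positive minus negative was thus 0.51, -0.41, 1.24 and -0.24 in pools 1 to 4, and the libraries at both ends were positive replicate 1 and negative replicate 3. The same difference for the mean of the G1/S genes was 0.07, -0.64, 0.25 and -0.29, with the same sign as that of the G2/M genes in each pool, nearer to 0 in pools 1 and 3 and farther from it in pools 2 and 4. Of the 23 G1/S genes 15, 1, 12 and 3 were higher in the positive library of pools 1 to 4. Without negative replicate 3 the median log2 fold change of G2/M genes was -0.05, with 13 of 28 above 0.

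**Figure D4:**
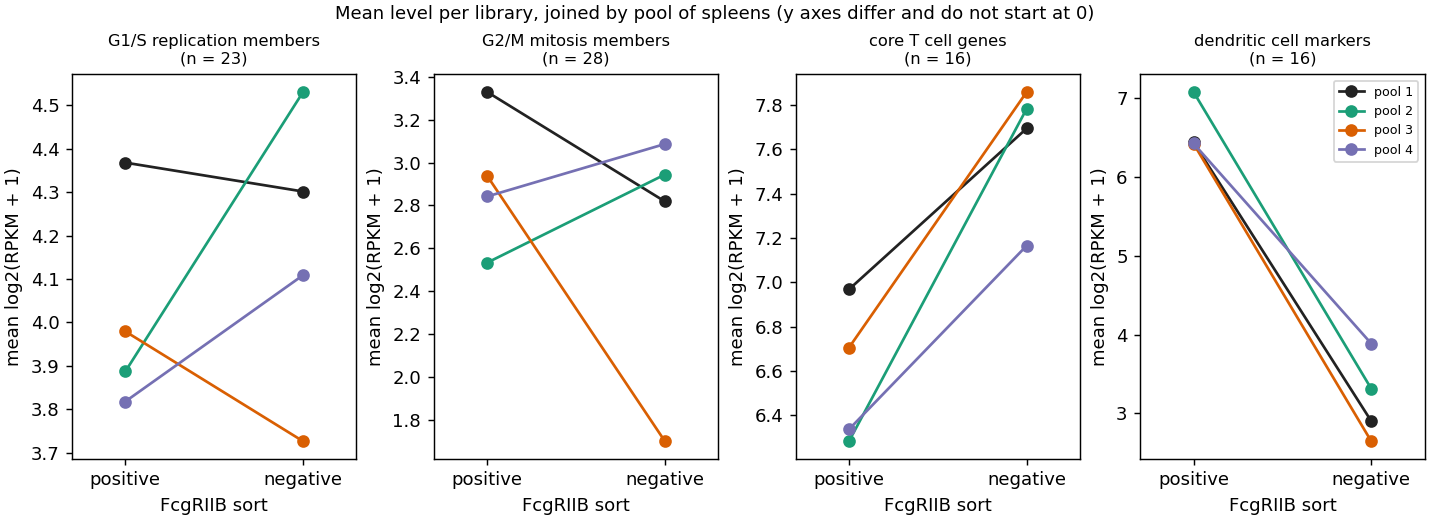
Mean log2(RPKM + 1) of the G1/S genes, the G2/M genes, 16 core T cell genes and 16 dendritic cell markers (panels, each with its own y axis that does not start at 0) in the positive and negative library of each pool, joined by a line. G2/M genes are higher in the positive library of pools 1 and 3 and lower in that of pools 2 and 4, while core T cell genes are lower and dendritic cell markers higher in all 4. In pool 4 the median difference of the G2/M genes (-0.27) is near that of all genes tested (-0.26).

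A further part of the variation ran between pools 1 and 2 and pools 3 and 4, in both groups alike. Of the 51 genes 11 had all 4 libraries of pools 1 and 2 above all 4 of pools 3 and 4, against 15% of all genes tested, and 2 had the opposite order, against 16.6%. All 6 helicase subunits were among the 11. Mcm3 averaged 52.4 RPKM in the libraries of pools 1 and 2 and 16.0 RPKM in those of pools 3 and 4, a 3.26-fold difference, and Mcm7, with the smallest, differed 1.93-fold. Rrm1 (3.15-fold), Uhrf1, Kif11, Kif20a and Nusap1 were the others. Tyms and Ung were the 2 genes with the opposite order, and Tyms averaged 100.4 RPKM in the libraries of pools 3 and 4 and 22.03 RPKM in those of pools 1 and 2. Within pools 1 and 2 alone limma called 0 of 51 members, with median log2 fold changes of -0.25 for G1/S and 0.03 for G2/M genes. At an unadjusted p under 0.05, 0 members were higher and 2 lower there, against 1442 and 876 of the 11946 genes. Within pools 3 and 4 alone limma also called 0, with medians of -0.07 and 0.42. At an unadjusted p under 0.05, 3 members were higher and 0 lower there, against 690 and 450 of the 11946 genes.

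Other genes of the cell cycle were taken from 4 lists. Of 41 genes of origin licensing and the replication fork limma called none (at an unadjusted p under 0.05, 0 higher and 3 lower). Their median log2 fold change was -0.34 and 34 of 41 were below 0, against 7312 of the 11946 genes tested. With the block 3 of 41 were called lower, against 3.85% of all genes: Pold2, a subunit of DNA polymerase delta, Gins4, of the helicase complex, and Dbf4, which activates the Cdc7 kinase. When each pool was left out of that fit in turn, Pold2 was called in 3 of 4 fits (limma adjusted p up to 0.107), Dbf4 in 1 (up to 0.260) and Gins4 in 0 (0.0602 to 0.138). Pold2 was at 43.4, 29.6, 27.7 and 18.8 RPKM in positive libraries, against 52.1, 76.3, 63.5 and 37.2 RPKM in negative libraries (log2 fold change -0.93, limma adjusted p = 0.0126 with the block). Of 45 tested genes of condensin, kinetochore, spindle and cytokinesis limma called none without the block (at an unadjusted p under 0.05, 0 higher and 1 lower; median -0.01), and with it Smc4 and Racgap1 were called lower, again against 3.85% of all genes. Smc4, a condensin subunit, was at 48.3, 50.8, 25.7 and 24.98 RPKM in positive libraries, against 122.7, 109.2, 63.8 and 46.8 RPKM in negative libraries (log2 fold change -1.14, limma adjusted p = 0.00130 with the block). Smc4 was called whichever pool was left out of the fit with the block, and Racgap1, which acts in cytokinesis, in 1 of 4 such fits (limma adjusted p up to 0.175).

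Among the regulators of G1 the largest estimate was that of Cdkn1a. Cdkn1a, the gene of the CDK inhibitor p21, was at 17.1, 28.9, 6.59 and 27.5 RPKM in positive libraries, against 3.00, 4.50, 2.30 and 5.05 RPKM in negative libraries. Every positive library lay above every negative one, with an estimate of 2.02 on the log2 scale (SE 0.43, limma adjusted p = 0.0237, and 1.57e-05 with the block). Without the block the call held in 3 of 8 fits that each left out 1 library, with an adjusted p of up to 0.106. It was the only one of 13 tested G1 regulators called without the block. With the block Ccnd1 and Cks1b were called higher as well and Ccnd2 and Cdkn2d lower, against 7.22% and 3.85% of all genes. With a pool left out of that fit, Ccnd1 and Cks1b were each called in 2 of 4 fits (limma adjusted p up to 0.0678 and 0.214). Ccnd2 and Cdkn2d were each called in 3 of 4 (up to 0.0670 and 0.0923), and Cdkn1a in all 4. Ccnd1, a D-type cyclin, was at 4.39, 7.88, 5.19 and 4.19 RPKM in positive libraries, against 0.292, 0.656, 0.542 and 4.26 RPKM in negative libraries, where the last value lay just below the lowest 25% mark of all genes in negative replicate 4, 4.27 RPKM. Ccnd2, the more abundant D-type cyclin, was at 33.0, 23.1, 35.1 and 33.8 RPKM in positive libraries, against 55.0, 78.7, 76.4 and 47.1 RPKM in negative libraries (log2 fold change -1.002, limma adjusted p = 0.00830 with the block). Cdkn2d, an inhibitor of D-type cyclin kinases, was at 47.2, 29.2, 45.2 and 44.2 RPKM in positive libraries, against 72.3, 109.5, 120.7 and 57.3 RPKM in negative libraries. Of 19 tested E2F, pocket protein and MuvB regulators none was called without the block (at an unadjusted p under 0.05, 0 higher and 1 lower) and with it only Myc, a growth regulator, which was lower (log2 fold change -0.85, limma adjusted p = 0.0316). Myc was called in 2 of 4 fits with the block and a pool left out (limma adjusted p up to 0.195).

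Most dendritic cell, monocyte and macrophage markers moved with the sort in these libraries, and markers of other cells did so less evenly. The summed level of 16 dendritic cell markers was 5318 to 7335 RPKM in positive libraries and 496.1 to 1354 RPKM in negative libraries, with 14 of 16 called higher by limma (15 with the block) and Clec10a at 0 in negative replicate 1. In negative replicates 1 to 3 Ccr7 made up 239.0 of 531.3, 504.7 of 1354 and 291.3 of 496.1 RPKM of that sum. In negative replicate 4 H2-Ab1 was the highest, with 307.4 of 765.5 RPKM. Of the 16 markers 1 was lower in the positive library of all 4 pools. The summed level of 18 monocyte and macrophage markers was 4036 to 7783 RPKM over the positive libraries and 1800 to 3564 RPKM in negative libraries, with 11 called higher (16 with the block) and none at 0. Ly6c2, which CD8 T cells also express, was lower in the positive library of all 4 pools and made up 1431 of 1800, 1561 of 3181, 3210 of 3564 and 2448 of 3130 RPKM of that sum in negative replicates 1 to 4. The median log2 fold change of the 18 genes was 2.75. Over 16 core T cell genes the summed level was 2227 to 4769 RPKM in positive libraries and 5862 to 9476 RPKM in negative libraries, so T cell transcripts were abundant in all 8. Limma called 0 of these 16 genes without the block (8 lower at an unadjusted p under 0.05) and 8 lower with it. The 12 B cell and plasma cell markers in the table summed to 545.6 to 1216 RPKM over the positive libraries and 155.7 to 970.6 RPKM in negative libraries, with 1 of 11 tested called higher (2 higher and 2 lower with the block) and none at 0. Jchain made up 374.9 of 545.6, 880.2 of 1216, 478.5 of 649.9 and 263.7 of 625.8 RPKM in positive replicates 1 to 4. In negative replicate 2 it made up 431.5 of 970.6 RPKM. The median log2 fold change of the 11 tested genes was -0.43, with 6 of 11 below 0. The 10 erythroid markers summed to 1239 to 5935 RPKM over the positive libraries and 933.3 to 2264 RPKM in negative libraries, with none called by limma (5 higher at an unadjusted p under 0.05; 4 higher with the block) and none at 0. The 10 neutrophil, basophil and mast cell markers summed to 127.2 to 1272 RPKM over the positive libraries and 168.0 to 2033 RPKM in negative libraries, with Mcpt8 and Fcer1a called higher (5 higher and 1 lower with the block), Mcpt8 at 0 in negative replicate 3 and Fcer1a at 0 in negative replicate 1. Members of that list had opposite signs. The neutrophil genes Ngp, Ltf, S100a8 and S100a9 had log2 fold changes of -2.64, -1.78, -2.10 and -1.79, and of these Ngp was lower in all 4 pools and called with the block (limma adjusted p = 0.0272). Mpo and the 5 basophil and mast cell genes had log2 fold changes of 1.14 to 5.77. The part of these cells in the levels of the 51 genes was not tested. When each library was scaled to its core T cell genes, the median of all genes tested moved by 1.05 on the log2 scale to 0.94, and 12% of all genes were called higher. Of the 51 members 4 were called higher there (Gins2, Ccnb1, Ccnb2 and Cdk1) and none lower. All 51 estimates were above 0, as were 11788 of the 11946 genes tested. The medians were 0.87 for G1/S and 1.34 for G2/M genes, against 0.94 over all genes tested.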

How the data were processed

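Poly(A) RNA of 8 libraries was measured. Per the labels' protocols, cDNA was made with the SMART-seq v4 kit and libraries with the NexteraXT kit. Whether strand was used in counting is not given. The authors deposited RPKM per gene and exon length, per the file headers. The submitters' processing notes list TopHat2 and mm9; the counting tool and annotation are not given in the sources used here. Low RPKM values were whole multiples of 1 read within 0.1 reads, which gave each depth.

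Limma (version 3.58.1, R 4.3.3; lmFit and eBayes with a trend) compared the groups, with no other term, in 11946 genes that reached 1 RPKM in 4 or more libraries, as log2(RPKM + 1) and two-sided. P-values were adjusted over all of them (Benjamini-Hochberg) and called at 0.05. A fold change on this scale understates the change of low genes. Replicate numbers mark shared pools, per the series design text, and deviations from group means correlated at 0.704, 0.414, 0.561 and 0.677 in pools 1 to 4. Calls, counts of called genes and the count of intervals that hold 0 are therefore given with the replicate block too where it changes them. Other standard errors and intervals are from the fit without the block unless the block is named. The exact permutation test for single genes used all 70 assignments of 8 libraries to 4 and 4. Members and lists were chosen with earlier results of these data known. Named by rule were members called in either fit, the 5 most abundant and the 3 with the largest change per phase, and called genes of the other lists; other members were picked after their values were seen. Only the limma fit without the block was tested on simulated data, which held no differences between pools. Core T cell genes and marker lists were matched by symbol. Symbols of 21 genes turned into dates were restored by Entrez ID. Each library holds sorted cells of 3 pooled spleens, and nothing shows a second library from the same cells.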

Additional observations from a re-analysis of the deposited data

Results flagged for a closer look

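In 106 groups of 4 libraries (both groups for each of the 51 genes and for the mean of each phase), 5 had a library far from the other 3 on the log2(RPKM + 1) scale, and chance alone gives about 1 in 20. Ccnb2 was at 12.7 RPKM in positive replicate 2 and Tpx2 at 8.33 RPKM in positive replicate 1, the library with the highest G2/M mean. Ccne2 was at 5.04 RPKM and Rpa2 at 35.4 RPKM in negative replicate 4, the shallowest library and the one with the highest floor. Bub1b was at 0.889 RPKM in negative replicate 3, the library with the lowest G2/M mean.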

How the results depend on the processing

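Without the block no member was called under the pseudocount of 0.1, no filter, a common sum, median ratios, quantiles, replicates 1 and 2 or 3 and 4 alone, or any 1 library left out. With the replicate block 1 G1/S gene was lower, and over all genes 863 were higher and 460 lower, against 362 and 32. With each library's 10th percentile subtracted, chosen after seeing the data, 15 genes were lower, and with the block 1 G1/S gene was lower, 2 G2/M genes (Ccnb2 and Ube2c) higher, 1090 genes higher and 501 lower. Scaling to core T cell genes called 1 G1/S and 3 G2/M genes higher, 1438 genes higher and 0 lower (limma; 6 at an unadjusted p under 0.05), with medians of 0.87 and 1.34. Scaling to a common sum called 220 and 8 genes. Lower genes numbered 19 by median ratios, 60 by quantiles and 11 in replicates 3 and 4 alone. Replicates 1 and 2 alone gave 875 and 142.

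Leaving out 1 library gave 178 to 503 genes higher and 5 to 45 lower, with 178 and 5 both without negative replicate 3. The G1/S median ran from -0.47 to 0.02 and the G2/M median from -0.05 to 0.41. Leaving out 1 pool with the replicate block, also chosen after seeing the data, gave 576, 800, 617 and 1242 genes higher and 261, 350, 157 and 458 lower without pools 1 to 4, and 0 to 1 G1/S genes and 0 to 4 G2/M genes higher, and 0 members lower. The 4 G2/M genes were those without pool 2, namely Birc5, Ccnb2, Cdk1 and Ube2c, and without pool 4 Bub1b, Ccnb2, Ube2c and E2f1 were called. The medians ran from -0.31 to -0.05 and from 0.00 to 0.45. Signs of uncalled members changed for 13 of 51 without negative replicate 3 and for 4 to 7 without any other library, for 14 in replicates 1 and 2 alone and for 10 in replicates 3 and 4 alone. The cause was not tested. A depth of 3060000 reads and a floor of 3.03 RPKM limit what negative replicate 4 shows of low G2/M genes.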
